A study of Panicum sumatrense with 28 samples.

Results

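The transcripts described here were present in the flower head of the cereal Panicum sumatrense, little millet, at each of 3 ages and lower in every library of 7 other tissues. They were chosen by their measured values in the deposited table. For each transcript the lowest value in the 9 panicle libraries plus 1 was divided by the highest value in the 19 other libraries plus 1, and this ratio is called the score below. A score above 1 means that even the lowest panicle library exceeded every library outside the panicle. Transcripts were kept when, in addition, the largest of the 3 stage means plus 1 was less than 4 times the smallest, and the 80 with the highest scores are the members. Of 101935 assembled transcripts, 399 had a score above 1, 327 of these also met the stage limit, and 72 did not.

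All plants were of genotype JK-8, grown untreated in a growth chamber. The panicle was sampled at 61, 73 and 85 days after sowing (early, mid and late), with 3 libraries per stage. Outside the panicle, seedlings gave germinating seed (2 days), radicle and plumule (both 3 days), and older plants gave young root with young leaf (13 days), the crown meristem (26 days) and vegetative stem (48 days). Young root and vegetative stem had 2 libraries each and the others 3. Whether replicates came from separate plants is not stated, so p-values measure the spread between these libraries, which may be technical.

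The panicle of a grass is a branched inflorescence. Its branch meristems form spikelets, the spikelets form florets enclosed by lemma and palea, and after fertilisation the florets fill grain. Floral organ identity in grasses depends on transcription factors of the MADS-box family, while pollen and endosperm each add programmes of their own at particular stages. Transcripts that stay on from the early to the late panicle may span several of these phases, in contrast to those of a single phase. The labels give ages and the names early, mid and late, and do not say which phases each stage held. Identifiers in the table come without gene names or sequences, so no member is given a gene name or function, and the lists of floral, photosynthetic and root genes planned as markers of the tissue labels were not analysed here. A transcript is named by its assembly identifier, in which DN and c numbers mark a cluster of related contigs, g an assembled gene and i an isoform. Each assembled gene had 1 row.

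Values are TPM, the length-corrected share of reads that a transcript takes, rescaled by the authors with a trimmed mean of M-values (TMM). Library sums divided by their geometric mean lay between 0.661 and 0.773 in the early and mid panicle, between 1.07 and 1.23 in the late panicle, and reached 3.202 in young root library 2. Read depth cannot be recovered from such values. A lower share of cells of 1 type and less RNA per cell cannot be told apart in bulk tissue. Library identifiers in the labels fall into 2 series: all panicle libraries lie in the second, with vegetative stem, radicle library 3 and young root library 2. The members were low in those 4 other libraries of the second series too, since the rule asks it, with 12 members at 1 or more in radicle library 3, 22 in young root library 2 and 31 in each vegetative stem library.

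**Figure D1:**
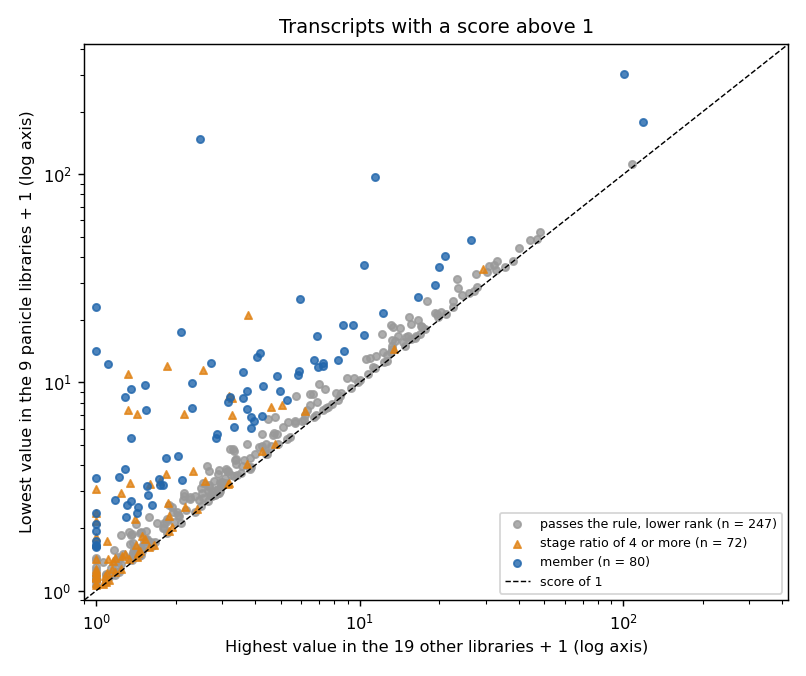
Each point is a transcript with a score above 1. The horizontal axis is its highest value in the 19 libraries outside the panicle plus 1, the vertical axis its lowest value in the 9 panicle libraries plus 1, both on log axes in TMM-scaled TPM, and the dashed line is a score of 1. The members include the point farthest above the line, and 25 transcripts that score as high as members but fail the stage limit lie among them.

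The score fell steeply along the ranks. It ran from 59.9 to 1.51 with a median of 1.99; 4 members reached 10, 13 reached 4, and 40 lay below 2. Levels differed widely too: the mean over the 9 panicle libraries was under 10 for 30 members, from 10 to 100 for 45, and above 100 for 5, with a median of 13.1 and a maximum of 682. Of the 80 members, 75 were at 1 or more in all panicle libraries, 31 stayed below 1 in all 19 other libraries, and 10 were listed at 0 in all of them.

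TRINITY_DN7658_c0_g1_i21 had the highest score by a wide margin. Its values were 279, 329 and 463 in the early panicle, 219, 551 and 605 in the mid panicle and 231, 252 and 147 in the late panicle. Outside the panicle its highest value was 1.47 in radicle library 1, followed by 1.09 in germinating seed library 3, and it was listed at 0 in young root and crown meristem. The 3 stages overlapped in their values, with mid library 1 well below the other mid libraries.

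The next 2 ranks were listed at 0 in every library outside the panicle. TRINITY_DN1581_c1_g2_i2 had 73.0, 61.4 and 81.9 in the early panicle, 44.1, 108 and 97.1 in the mid panicle and 23.9, 25.0 and 22.0 in the late panicle. Its late libraries all lay below its early and mid libraries. TRINITY_DN7145_c0_g1_i2 had 31.3, 34.9 and 57.9 early, 15.6, 50.1 and 43.7 mid, and 19.5, 22.0 and 13.1 late, and here too mid library 1 was the lowest of its stage. TRINITY_DN14954_c0_g1_i3, at rank 4, had 37.7, 26.6 and 29.1 early, 16.1, 15.8 and 16.5 mid, and 13.3, 12.4 and 11.2 late, against at most 0.112 elsewhere. For this transcript the stages did not overlap and the order was early, mid, late.

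Ranks 5 to 10 had lower levels or more signal outside the panicle. TRINITY_DN6884_c2_g1_i2 was abundant, at 203 ± 63.7 early, 245 ± 12.5 mid and 108 ± 11.02 late (SD, n = 3), but reached 10.4 in germinating seed library 3. TRINITY_DN20784_c0_g1_i4 had 34.7 ± 9.52, 70.5 ± 19.6 and 22.4 ± 6.22, with a highest value of 1.10 outside the panicle. The remaining ranks, TRINITY_DN5388_c0_g2_i1, TRINITY_DN36044_c0_g1_i5, TRINITY_DN7145_c0_g2_i2 and TRINITY_DN7721_c0_g1_i2, had panicle values between 6.39 and 27.5 and at most 0.54 elsewhere.

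**Figure D2:**
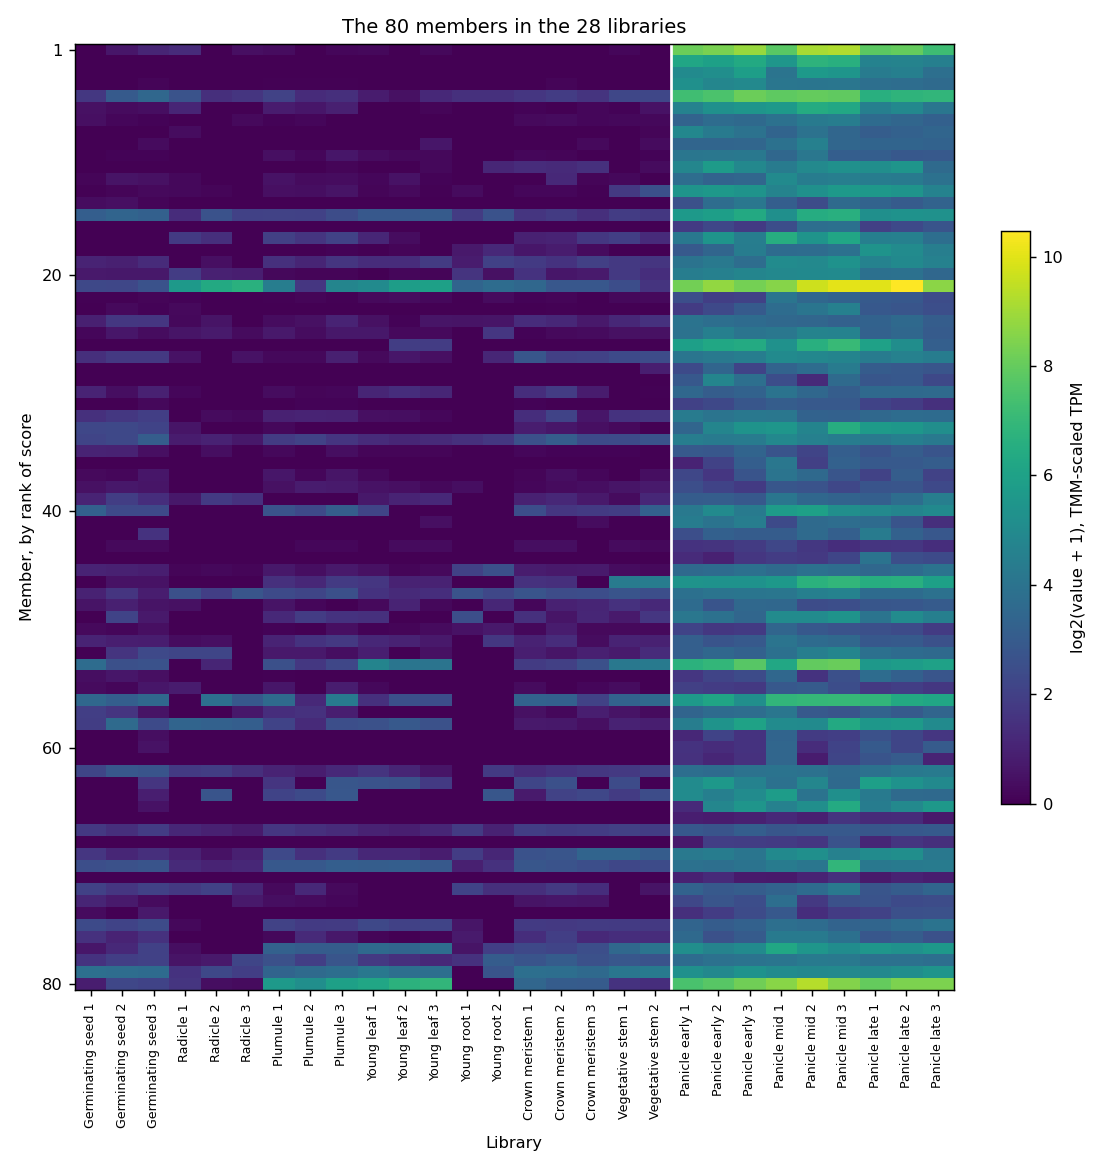
Rows are the 80 members in order of score, columns the 28 libraries, and colour the log2(value + 1) of the TMM-scaled TPM; the white line separates the 19 other libraries from the 9 panicle libraries. Rows near the top are dark to the left of the line, while many lower rows keep a weak signal there.

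The 5 most abundant members held 50.2% ± 2.97 of the summed member values in the early, 53.4% ± 7.08 in the mid and 56.1% ± 6.31 in the late panicle (SD, n = 3). TRINITY_DN79_c0_g1_i6 was the most abundant. It had 302, 435 and 310 in the early panicle, 381, 809 and 1062 in the mid panicle and 1020, 1424 and 397 in the late panicle. It was also the member with the highest level in both root tissues, with 48.0, 80.8 and 99.8 in radicle and 9.25 and 12.1 in young root, and it had 30.9, 55.2 and 61.7 in young leaf. Its panicle libraries spread widely, and the low mid library 1 and late library 3 lay within the range of the early stage.

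TRINITY_DN7472_c0_g1_i20 was abundant in the panicle and reached its next highest levels in young leaf and plumule. Its values were 177, 218 and 298 early, 396, 630 and 368 mid, and 257, 337 and 339 late. In young leaf it had 72.5, 106 and 117 and in plumule 50.0, 35.0 and 61.1, while both young root libraries were listed at 0. No other member was as high in leaf or plumule. TRINITY_DN14845_c0_g1_i16, another of the most abundant, had 104, 120 and 217 early, 76.7, 245 and 269 mid, and 47.4, 54.6 and 63.4 late, with 17.5 and 18.9 in vegetative stem and 15.3 to 25.4 in young leaf. Over all members the share of the library total was 0.362% ± 0.0448 in the early, 0.529% ± 0.103 in the mid and 0.249% ± 0.0446 in the late panicle (SD, n = 3). Library sums were larger in the late panicle, as given above.

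**Figure D3:**
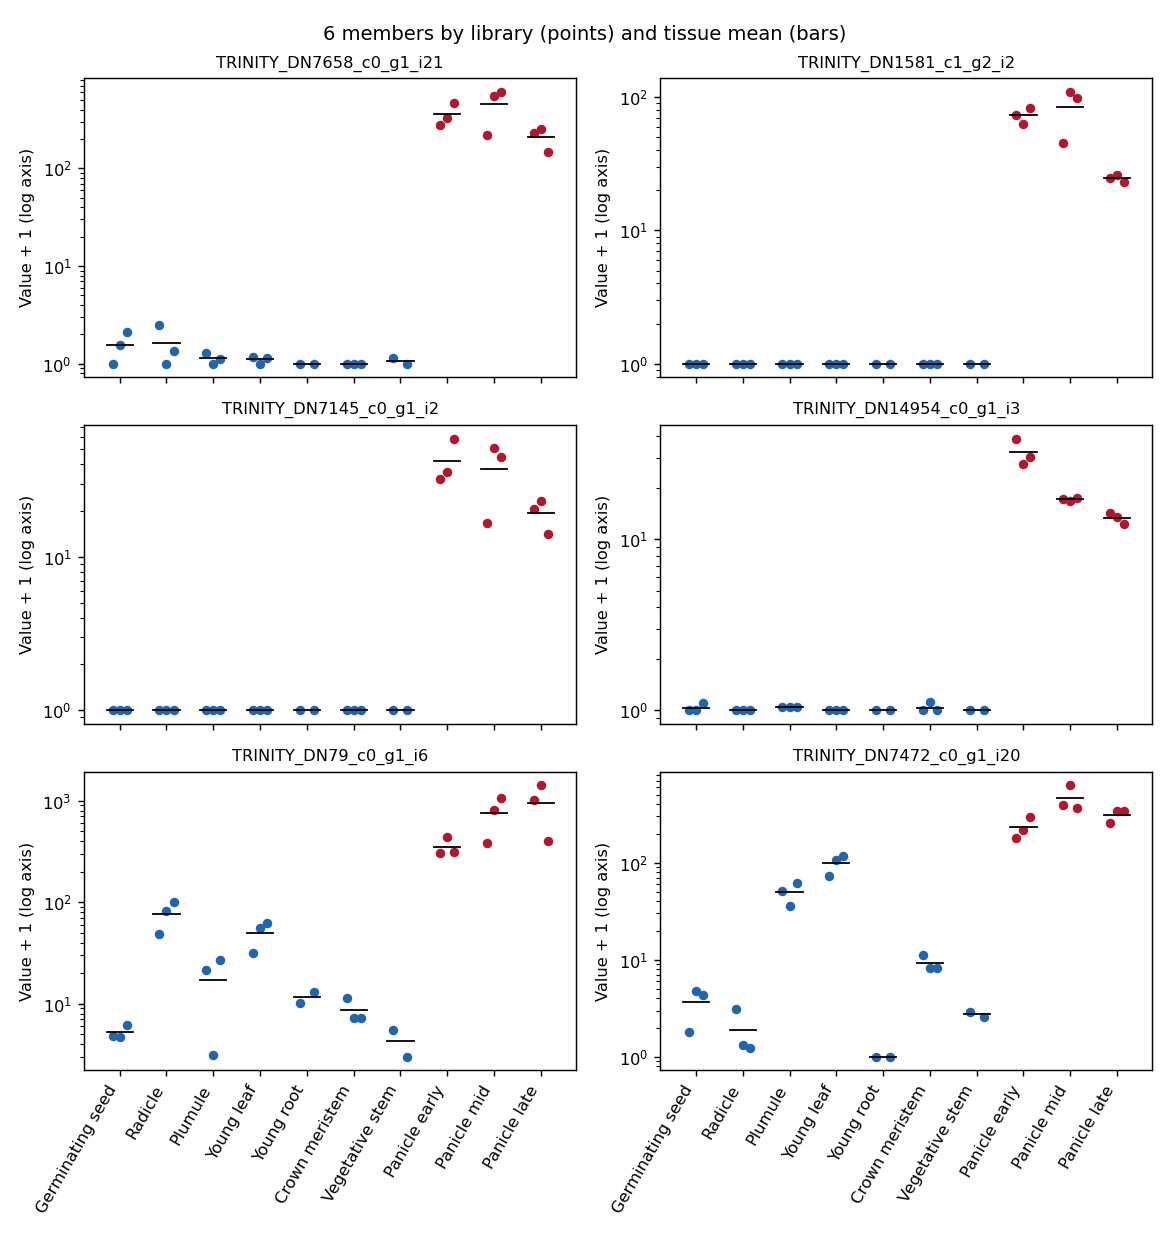
Value plus 1 on a log axis (TMM-scaled TPM) for the 4 members with the highest scores and for 2 of the most abundant members. Points are libraries, red for the panicle and blue for other tissues, and the short bars are tissue means. In the upper 4 panels the other tissues lie at or near the bottom of the axis, whereas TRINITY_DN79_c0_g1_i6 and TRINITY_DN7472_c0_g1_i20 keep a clear level in several of them.

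Both thresholds of the rule lie in a continuum. At the rank limit, TRINITY_DN9300_c0_g1_i22, TRINITY_DN2923_c1_g1_i1 and TRINITY_DN7472_c0_g1_i20 had scores of 1.54, 1.52 and 1.51. Just outside, TRINITY_DN1062_c1_g1_i3, TRINITY_DN17191_c0_g1_i2 and TRINITY_DN7744_c0_g1_i3 had scores between 1.4945 and 1.5. At the stage limit, the members with the largest ratio were TRINITY_DN903_c2_g1_i1, TRINITY_DN14845_c0_g1_i16 and TRINITY_DN8999_c0_g1_i7 at 3.55, 3.53 and 3.52. The ratio of TRINITY_DN8999_c0_g1_i7 rests on mid library 3, with 119 against 19.3 and 16.5 in mid libraries 1 and 2. Past the limit, TRINITY_DN41250_c0_g1_i2, TRINITY_DN12642_c0_g1_i6 and TRINITY_DN535_c1_g1_i1 had ratios of 4.23, 4.29 and 4.75, and 25 transcripts with scores as high as the members were left out in this way.

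The lowest panicle library decides a score, and it was not spread evenly. It was late library 3 for 21 members and early library 1 for 16, but mid library 1 for 1 and late library 2 for 2. Within the late stage, library 3 was the lowest for 57.5% of the members, against 38.96% of the 27408 transcripts whose mean reached 1 in each stage. Within the early stage, library 1 was the lowest for 48.8% of the members, against 37.8%. Within the mid stage, library 1 was the lowest for 40% of the members, against 40.2%. The median of its value over the stage mean was 0.948 for the members and 0.976 for those transcripts. Members held 0.411% of the total of mid library 1, and 0.581% and 0.595% in mid libraries 2 and 3. Without early library 1, 561 transcripts had a score above 1, and 69 of the 80 members stayed among the top 80; without late library 3, 479 did, and 72 members stayed. TRINITY_DN34671_c0_g1_i1 shows how 1 library lowers a score: it had 1.37 in early library 1, 26.7 and 42.6 in the other early libraries and 20.0 to 83.7 in the mid and late libraries.

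The stage limit leaves room for differences of up to nearly 4 times, and the members used it. The ratio of the largest to the smallest stage mean (each plus 1) ranged from 1.03 to 3.55 with a median of 2.07; it was under 1.5 for 23 members and at least 2 for 43. The most even member was TRINITY_DN17790_c0_g1_i17, a transcript of low level with 6.38, 5.51 and 7.82 early, 6.03, 6.56 and 6.50 mid, and 5.95, 6.38 and 6.72 late. TRINITY_DN8025_c0_g1_i4 was nearly as even, at 12.0 ± 1.34, 12.6 ± 1.23 and 12.3 ± 2.28 (SD, n = 3), as was TRINITY_DN2192_c0_g1_i17 at 42.9 ± 3.58, 37.3 ± 12.9 and 37.7 ± 11.9. No stage contrast called these 3 members.

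The mid panicle was the stage of highest mean for 51 of 80 members, the early panicle for 16 and the late panicle for 13. Among the 24912 transcripts with stage means of at least 1 and a stage ratio below 4, the mid panicle was highest for 32.8%, the early for 38.4% and the late for 28.8%. Of the 247 transcripts that met the rule at lower ranks, 109 were highest in the mid panicle. A score is set by the lowest library, which lay in a mid library for only 15 of 80 members (1, 9 and 5 in mid libraries 1, 2 and 3). Rescaling the libraries to a common sum left 61 members highest in the mid and 2 in the late panicle; leaving out any 1 panicle library gave 46 to 52 in the mid panicle.

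**Figure D4:**
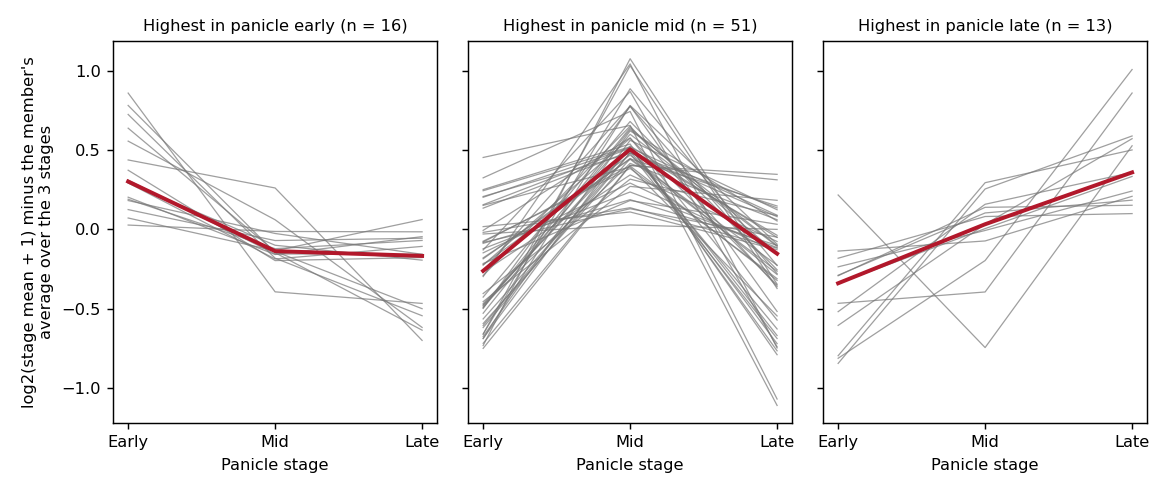
For each member, log2(stage mean + 1) minus its average over the 3 stages, split by the stage with the highest mean; grey lines are members and the red line is the median of the panel. The panel of the mid panicle holds 51 members, those of the early and late panicle 16 and 13.

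Stage differences were tested with limma on log2(value + 1), fitted with all 28 libraries on the 77548 transcripts that reached 1 in 2 or more of them. All 80 members passed this filter. A transcript was called at an adjusted p below 0.05 and, for a contrast of 2 groups, a log2 difference of at least 1. The stage limit bounds these differences, and the score favours transcripts with no low panicle library, so the counts of members called are printed beside those of all transcripts and nothing is read from the comparison. The fit shares 1 spread over all tissues, and the members vary less outside the panicle, where they are near 0, with a median within-tissue SD of 0.26 there and 0.37 in the panicle on the log2 scale (67.5% of members had the larger SD in the panicle, against 36.0% of all transcripts). Counts are therefore also given for a fit of the 9 panicle libraries alone.

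Between any stages, limma's moderated F called 30 of 80 members (adjusted p below 0.05), while 23.1% of all transcripts were called. The fit of the panicle libraries called 31 members and 35% of its 48248 transcripts, and 22 members were called in both fits.

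From the early to the mid panicle, 10 members rose, where 5.76% of all transcripts did, and 1 fell, where 4.98% did. In the fit of the panicle libraries alone 12 rose, 8 of them in both fits, and none fell, with 7.9% and 7.61% of all transcripts called. The median log2 difference of the members was 0.41, and over all transcripts it was 0. TRINITY_DN19852_c0_g1_i4 rose most, from 2.52, 4.01 and 6.87 to 11.9, 15.7 and 22.5 (limma log2 difference 1.73, SE 0.25, adjusted p = 3.5e-05). TRINITY_DN9637_c0_g1_i10 rose from 4.70, 2.84 and 3.12 to 15.9, 10.2 and 8.91, by 1.46 on the log2 scale (SE 0.22, adjusted p = 6.7e-05). In both transcripts each mid library exceeded each early library, and the calls held in the fit of the panicle libraries (adjusted p = 0.0069 and 0.0070). The single fall, TRINITY_DN39110_c0_g1_i1, overlapped between the stages and did not pass in that fit. Without mid library 2 the count of rises was 16. Both named rises were lost with a pseudocount of 10 in place of 1.

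From the mid to the late panicle, 12 members fell, where 5.16% of all transcripts did, and 2 rose, where 2.81% did. Of the falls, 9 were called in both fits, and neither rise was; the fit of the panicle libraries called 6.15% of all transcripts lower and 3.52% higher. TRINITY_DN1185_c0_g1_i9 fell by 1.77 on the log2 scale (SE 0.41, limma adjusted p = 0.0059), from 92.3, 42.5 and 71.7 to 21.8, 22.6 and 12.9. TRINITY_DN1581_c1_g2_i2, whose values are given above, fell by 1.67 (SE 0.23, adjusted p = 2.9e-05). The rises were TRINITY_DN3958_c0_g1_i5, from 11.6, 12.2 and 14.1 to 40.8, 32.7 and 21.3 (log2 difference 1.21, SE 0.28, adjusted p = 0.0060), and TRINITY_DN903_c2_g1_i1, from 2.67, 2.32 and 3.55 to 14.9, 4.64 and 4.14 (1.02, SE 0.30, adjusted p = 0.028). With only the panicle libraries their adjusted p was 0.062 and 0.16, and the second was also lost without mid library 1, mid library 2 or late library 1; without late library 1 its log2 difference was 0.50. With a pseudocount of 0.1 both rises and the fall of TRINITY_DN1185_c0_g1_i9 were lost, and with 10, or with a common sum, both rises were. The balance of directions in this step depended on the scaling: with libraries rescaled to a common sum 34 members fell and none rose, and the members' median log2 difference moved from -0.35 to -0.96, while that of the 33197 transcripts with a mean log2 level of at least 1 moved from -0.13 to -0.65. Of all calls in this step 64.8% were lower as deposited, against 87.4% after the rescaling and 54.0% after quantile normalization.

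Between the early and the late panicle the median log2 difference of the members was 0.01 as deposited and -0.59 with libraries rescaled to a common sum. Of them 5 rose, where 6.44% of all transcripts did, and 7 fell, where 8.64% did; 3 and 5 of these were called in both fits. The fit of the panicle libraries called 9.96% of all transcripts higher and 13.6% lower. The rises were led by TRINITY_DN903_c2_g1_i1, from 1.43, 0.938 and 2.15 to 14.9, 4.64 and 4.14 (log2 difference 1.65, SE 0.30, limma adjusted p = 0.00024), and TRINITY_DN3958_c0_g1_i5, from 6.54, 9.54 and 19.8 to 40.8, 32.7 and 21.3 (1.42, SE 0.28, adjusted p = 0.00074). TRINITY_DN5797_c1_g1_i5 fell by 1.67 (SE 0.39, adjusted p = 0.0030), from 20.0, 14.8 and 21.0 to 11.6, 5.66 and 1.69, and TRINITY_DN1581_c1_g2_i2 by 1.56 (SE 0.23, adjusted p = 2.3e-05). Several high ranks fell here without reaching the threshold in either single step: TRINITY_DN14954_c0_g1_i3 fell by 1.26 (SE 0.17, adjusted p = 7.1e-06), TRINITY_DN7721_c0_g1_i2 by 1.18 (SE 0.22, adjusted p = 0.00031) and TRINITY_DN36044_c0_g1_i5 by 1.10 (SE 0.22, adjusted p = 0.00071). These 3 contrasts share libraries and are not independent. The 2 named rises and the fall of TRINITY_DN5797_c1_g1_i5 were lost with a pseudocount of 10, and that fall also with 0.1; without late library 3 it was -1.08. The rise of TRINITY_DN3958_c0_g1_i5 was also lost with a common sum. Without early library 1 only 3 members rose, and with a common sum 1 rose and 22 fell. Of all calls 57.3% were lower as deposited, against 80.5% after that rescaling and 49.9% after quantile normalization.

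Outside the panicle the members were mostly weak, by choice, but not evenly so. A mean of 1 or more was found for 32 members in vegetative stem, 31 in crown meristem, 29 in germinating seed, 26 in plumule, 22 in young leaf, 20 in young root and 16 in radicle. The same shares over all kept transcripts were 42.5%, 46.9%, 48.2%, 53.8%, 40.5%, 40.8% and 39.1%. Germinating seed was the tissue with the highest mean outside the panicle for 22 members, vegetative stem for 12, plumule for 11, young leaf for 8, crown meristem for 7, and radicle and young root for 5 each; the 10 listed at 0 have none. Over the 74864 kept transcripts with any signal outside the panicle, germinating seed took 14.96% and plumule the largest share, 20.8%. Both young root libraries were listed at 0 for 49 members and all radicle libraries for 35; of all kept transcripts 53.6% and 45.6% were, so zeros in the roots were common throughout the table.

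**Figure D5:**
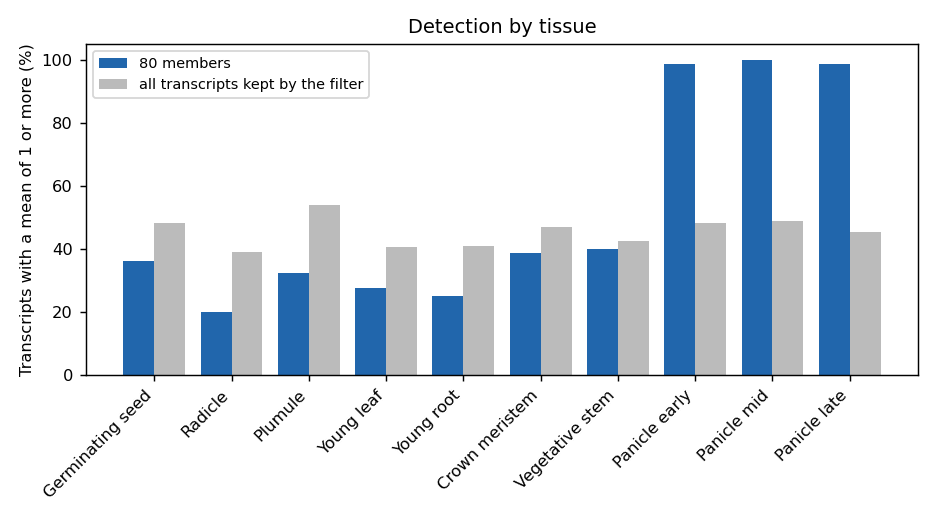
Percent of transcripts with a tissue mean of 1 or more (TMM-scaled TPM), for the 80 members in blue and the 77548 kept transcripts in grey. Outside the panicle the blue bars run from 16 members in radicle to 32 in vegetative stem, while in the panicle stages nearly all members are counted because the rule chose them so.

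The rule used only the highest of the 19 other libraries, so differences among the 7 other tissues were tested, although the score keeps all of these levels low and thereby limits them. Limma's moderated F called 36 of 80 members, where 53.5% of all transcripts were called. Only 43 members passed the filter when the panicle libraries were left out, and the others were kept by their panicle values. In the fit without the panicle libraries the F called 34 of these 43 members, where 58.3% of its 64654 transcripts were called. Of the members called without the panicle, 33 were also called in the fit of all libraries. The filter and the rule decide which members can be called, so nothing is read from either share. The shoot axis, taken as the mean of plumule, crown meristem and vegetative stem, was then compared with the roots, with young leaf and with germinating seed. These comparisons share the shoot axis libraries. Vegetative stem lies in the second library series, while young leaf and germinating seed lie in the first. Only radicle and young root have libraries in both series, so a series covariate rests on these tissues. With that covariate the calls named in the next paragraphs held. Whether the series acts alike in the other tissues was not tested. Where one group is listed at 0 or near it, the log2 difference depends on the pseudocount and is no measure of fold. With a pseudocount of 10 all calls named in the next paragraphs were lost except those of TRINITY_DN7472_c0_g1_i20 and TRINITY_DN79_c0_g1_i6.

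Against the mean of radicle and young root, 16 members were higher in the shoot axis and 1 was lower; of all transcripts 20.8% and 10.1% were. The fit without the panicle libraries called 16 of 43 members higher and 1 lower, with 24.9% and 11.6% of its transcripts. TRINITY_DN14845_c0_g1_i16 led, with 2.26 to 4.85 in plumule, 2.56 to 4.97 in crown meristem and 17.5 and 18.9 in vegetative stem, against 0, 1.09 and 0 in radicle and 0 in young root (log2 difference 2.67, SE 0.30, limma adjusted p = 8.5e-08). TRINITY_DN104231_c0_g1_i1 was listed at 0 in all 5 root libraries and had 2.11 to 8.39 in the 8 shoot axis libraries (2.41, SE 0.32, adjusted p = 1.3e-06). With quantile normalization 9 members were higher and 3 lower, with a common sum 26 and none; the share of all calls that were lower moved from 32.6% to 42.3% and 13.7%, respectively.

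Against young leaf, 11 members were higher in the shoot axis, where 12.6% of all transcripts were, and 6 were lower, where 9.29% were. Without the panicle libraries the fit called 11 of 43 members higher and 6 lower, with 14.9% and 10.9% of its transcripts. TRINITY_DN35463_c0_g1_i1 was listed at 0 in all 3 leaf libraries and had 0.712 to 6.23 in the shoot axis (log2 difference 2.09, SE 0.55, limma adjusted p = 0.0047). TRINITY_DN10408_c0_g1_i7 had 0.768 to 1.25 in leaf and 1.73 to 9.34 in the shoot axis, highest in crown meristem and vegetative stem (1.61, SE 0.24, adjusted p = 1.0e-05). Lower in the shoot axis were 2 abundant members with leaf signal: TRINITY_DN7472_c0_g1_i20 by -3.19 (SE 0.30, adjusted p = 9.8e-09) and TRINITY_DN79_c0_g1_i6 by -2.69 (SE 0.49, adjusted p = 0.00014) on the log2 scale. The shoot axis tissues differed in both. The first had 35.0 to 61.1 in plumule, 7.16 to 10.1 in crown meristem, and 1.92 and 1.58 in vegetative stem. The second had 20.5, 2.16 and 26.1 in plumule, 6.23 to 10.3 in crown meristem, and 4.53 and 2.00 in vegetative stem. With quantile normalization 3 members were higher and 6 lower, and with a common sum 18 and 4; the share of all calls that were lower went from 42.5% to 52.1% and 25.8%.

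Germinating seed exceeded the shoot axis for 5 members, where it did for 7.61% of all transcripts, and lay below it for 7, where it did for 6.04%. In the fit without the panicle libraries 5 of 43 members were higher and 7 lower, with 8.76% and 7.2% of its transcripts. TRINITY_DN2688_c0_g1_i1 had 3.69, 3.83 and 3.28 in germinating seed and at most 0.779 in the shoot axis (log2 difference 1.92, SE 0.32, limma adjusted p = 0.00011). TRINITY_DN3595_c1_g1_i1 had 7.85, 9.36 and 8.40 against 1.64 to 4.39 (1.398, SE 0.27, adjusted p = 0.00041). TRINITY_DN24177_c0_g1_i5 was lower in germinating seed, with 0.560, 1.31 and 3.05 against 3.49 to 15.6 (-1.78, SE 0.28, adjusted p = 4.0e-05), and TRINITY_DN1185_c0_g1_i9 was listed at 0 there and had 0.963 to 3.17 in the shoot axis (-1.58, SE 0.34, adjusted p = 0.0014). Without germinating seed library 2 the count of higher members was 3. Of all calls 44.3% were lower as deposited and 61.7% with a common sum. TRINITY_DN2923_c1_g1_i1 had the highest mean of the members in both germinating seed (13.3, 12.5 and 11.6) and crown meristem (13.1, 12.8 and 11.1), against 28.3 to 41.7 in the panicle.

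Of the assembly clusters, 3 held 2 members each, so the 80 members lay in 77 clusters, and 19 of these clusters held 22 further rows of the table. Of the 22 rows, which are not members, 15 had their highest tissue mean in a panicle stage, against 26.6% of all kept transcripts. A score above 1 was found for 2 of the 22, and for 399 of all 101935 transcripts. Of these 2, TRINITY_DN845_c0_g1_i8 met the rule at rank 280, and TRINITY_DN3595_c1_g2_i2 failed the stage limit. Rows of a cluster can share reads where they are near-identical, so these rows are not independent of the members.

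The cluster of the top member holds transcripts that differ in vegetative stem. TRINITY_DN7658_c0_g1_i21 had 0.14 and 0 in the vegetative stem libraries. The member TRINITY_DN7658_c0_g2_i1 had 19.7 and 20.1 there, its highest level outside the panicle and the highest of any member in that tissue, and 40.2, 39.3 and 40.1 early, 46.6, 100.999 and 117 mid, and 91.1, 95.9 and 60.9 late. The non-member TRINITY_DN7658_c0_g3_i1 had 77.3 and 102 in vegetative stem, 73.7, 43.3 and 50.6 early, 30.3, 85.5 and 56.1 mid, and 150, 119 and 85.8 late. Its score was 0.303 because stem and panicle libraries overlapped.

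The cluster of TRINITY_DN3595_c1_g1_i1 differs along the stages. The member had 48.3, 57.3 and 81.03 early, 36.5, 89.0 and 95.8 mid, and 35.8, 40.1 and 37.9 late. TRINITY_DN3595_c1_g2_i2 had 99.5, 127 and 177 early, 12.9, 89.2 and 130 mid, and 6.64, 8.34 and 10.2 late, which gave a score of 1.66 but a stage ratio of 14.4. TRINITY_DN3595_c1_g3_i1 had 83.8, 73.9 and 109 early, 29.2, 65.8 and 88.0 mid, and 7.14, 13.8 and 5.14 late. All 3 rows had their lowest mid value in library 1 and their lowest stage mean in the late panicle, where both non-members fell further than the member. In the cluster of TRINITY_DN845_c0_g2_i1, the member had 10.9, 5.02 and 7.16 early, 18.3, 18.6 and 13.7 mid, and 6.22, 7.44 and 5.12 late, and the non-member TRINITY_DN845_c0_g1_i8 had 5.70, 2.91 and 3.84, 15.4, 6.98 and 6.50, and 6.28, 7.25 and 9.14.

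The other clusters with paired members were those of TRINITY_DN7145_c0 and TRINITY_DN5797_c1. In the latter, TRINITY_DN5797_c1_g2_i1 had 59.5, 75.4 and 84.4 early, 38.3, 95.9 and 134 mid, and 63.0, 33.7 and 8.09 late, and TRINITY_DN5797_c1_g1_i5 had 4.17, 11.3 and 12.4 mid, which overlapped its late values given above. Both were lowest in late library 3 and, within the mid stage, in library 1.

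Over the 28 libraries, the transcripts of the whole table most like TRINITY_DN7658_c0_g1_i21 by Pearson's r of log2(value + 1) were TRINITY_DN7145_c0_g1_i2 (0.993), TRINITY_DN1581_c1_g2_i2 (0.991), TRINITY_DN5388_c0_g2_i1 (0.990), TRINITY_DN20784_c0_g1_i4 (0.988) and TRINITY_DN7145_c0_g2_i2 (0.986). All of these are members of the top 10. Such coefficients are set by the step between the panicle and the other libraries, which the rule chose, and are a description only.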

How the data were processed

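The authors deposited 1 signal value, never below 0, for each transcript in each library. Reads were assembled with Trinity and TPM estimated with kallisto, as the series design states. The submitters' processing notes also list CASAVA and Trimmomatic; no version is stated. The labels name a column kit or an organic reagent for RNA extraction without assigning either to a library. The table's name says that the authors' values were TMM-scaled. No read counts are held, so depth is unknown and no count model was used.

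Every column matched 1 sample by the code in its title. Members followed the score rule given above. Members, lists and tests were chosen with earlier results of these data known. Contrasts were fitted in R 4.3.3 (limma 3.58.1) to log2(value + 1); each tissue had its own mean, and all libraries entered (18 residual degrees of freedom). The variance had an intensity trend, tests were two-sided, and p-values were adjusted by Benjamini-Hochberg over 77548 transcripts. The procedure was tested on simulated data for the early-to-mid contrast only, with all levels raised so that no value was cut off. That test does not show how calls behave for transcripts with low values. Differences on this scale understate changes of low transcripts. Descriptions used Python 3.11.15 with pandas 2.3.3 and numpy 2.4.6. Named transcripts were the top 10 scores, the 5 most abundant, those at the limits, the most even, the highest per tissue, the 2 largest rises and falls per contrast without overlap of libraries, and cluster rows; TRINITY_DN34671_c0_g1_i1, TRINITY_DN39110_c0_g1_i1, TRINITY_DN5797_c1_g2_i1 and TRINITY_DN845_c0_g2_i1 were chosen after their values were seen. Alternatives changed the pseudocount, the filter, the scaling or the intensity trend, or added replicate number as block or library series as covariate. Others were fits of the compared groups only, other rule settings and leaving out each library.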

Additional observations from a re-analysis of the deposited data

How the results depend on the processing

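With a pseudocount of 0.1 the early-to-mid step gave 3 rises and 0 falls, mid-to-late 0 and 1, early-to-late 2 and 2, the stage F 4, shoot axis against roots 29 higher and 2 lower, shoot axis against leaf 18 higher, and seed against shoot axis 9 higher. A pseudocount of 10 gave 2 and 0, 0 and 6, 1 and 3, 51 for the stage F and 17 for the F of other tissues, with 1, 0 and 0 higher against roots, against leaf and in seed, 2 lower against leaf and 0 lower in seed. A filter at a mean of 5 kept 39 members and gave 6 rises and 0 falls early to mid, 1 rise mid to late, 2 rises early to late and 16 for the stage F. A common sum gave 0 rises and 34 falls mid to late, 1 and 22 early to late, 47 for the stage F, 26 higher and 0 lower against roots, 18 higher against leaf and 3 higher in seed; it moved the late panicle down as a whole, and left 2 members highest there (this count and the other alternatives for the stage of highest mean were chosen after seeing the data). Quantile normalization gave 2 falls early to mid, 9 higher and 3 lower against roots, and 3 higher against leaf. The fit of the compared groups alone gave 0 falls early to mid, 0 rises mid to late and 3 rises early to late. A stage limit of 2 left 213 transcripts and 37 of the same members. The cause of these shifts was not tested.

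Leaving out each library gave 8 to 16 rises and 0 to 2 falls early to mid, 1 to 3 rises mid to late, 3 to 7 rises early to late, 1 to 2 lower against roots and 3 to 7 higher in seed. The single early-to-mid fall was lost without early library 2 or 3 or mid library 1 or 2, and 2 were called without late library 1 or 3. Mid-to-late rises numbered 1 without mid library 2 or late library 1, and 2 members were lower against roots without radicle 3, plumule 2 or young root 2.

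The replicate number as a block gave 10 rises and 1 fall early to mid and 11 falls mid to late, and left every other count of calls within 1.5 times of that in the report. Replicate numbers did not pair libraries: same-numbered panicle libraries correlated in their deviations at 0.018 on average, with 0 of 9 pairs above 0.1. Changing the score offset to 0.1 or 10, or rescaling to a common sum, kept 68, 61 and 61 of the 80 members. The unknown depth limits statements on members listed at 0.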
